A study of Mus musculus with 8 samples.

Results

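The Notch pathway was examined in freshly isolated muscle stem cells of the mouse through 10 genes chosen by name: the receptors Notch1, Notch2 and Notch3, the DNA-binding factor Rbpj, the transcriptional effectors Hes1, Hey1, Heyl and Hes6, and the ligands Dll1 and Jag1. All 10 were found once each among the 57180 genes of the deposited count and TPM tables, and all 10 passed the filter on low counts that left 15660 genes for testing. The cells were purified by flow cytometry and sequenced without culture. There were 4 libraries of wild-type cells (control, replicates 2, 5, 7 and 8) and 4 libraries from SC-RhoAfl/+ mice, which carry a floxed and an intact copy of RhoA (RhoA het, replicates 5, 6, 7 and 8; their genotype field reads RhoA knockdown). The Cre driver, the age of the animals and the number of animals per library are not given in the sources used here, so p-values measure the spread between these libraries. In bulk RNA, fewer cells of a type and less RNA per cell cannot be told apart.

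Notch signalling passes between touching cells. A Delta or Jagged ligand on the sending cell pulls on a Notch receptor, which is then cut by ADAM proteases and by gamma-secretase, and the freed intracellular domain joins RBPJ and Mastermind proteins on DNA to switch on repressors of the HES and HEY families. In resting muscle stem cells the pathway is known for keeping the cells quiescent and undifferentiated: loss of Rbpj leads to their spontaneous differentiation, and HES and HEY proteins hold back the myogenic factor MyoD. Hes6 differs from the other effectors in that it antagonises Hes1 and is itself linked to myogenic differentiation.

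The members lie on 7 chromosomes of mm39, in the coordinates of the count table. The receptor genes are Notch1 (ENSMUSG00000026923.16, chromosome 2, 26347915 to 26406675, minus strand), Notch2 (ENSMUSG00000027878.12, chromosome 3, 97920843 to 98057677, plus strand) and Notch3 (ENSMUSG00000038146.9, chromosome 17, 32339794 to 32385826, minus strand). Rbpj (ENSMUSG00000039191.13) spans 53623494 to 53814704 on chromosome 5. Of the effectors, Hes1 (ENSMUSG00000022528.9) spans 29883202 to 29886614 on chromosome 16, Hey1 (ENSMUSG00000040289.9) 8728419 to 8732316 on chromosome 3, Heyl (ENSMUSG00000032744.5) 123127349 to 123143668 on chromosome 4 and Hes6 (ENSMUSG00000067071.9) 91339205 to 91341760 on chromosome 1. The ligand genes are Dll1 (ENSMUSG00000014773.14, chromosome 17, 15587616 to 15597134) and Jag1 (ENSMUSG00000027276.8, chromosome 2, 136923376 to 136958564). The exons of the 3 receptor genes overlap other annotated genes, 2 on the opposite strand for Notch1, 1 on the same strand for Notch2 and 1 on the opposite strand for Notch3. Since the counts ignore strand, fragments in those overlaps could not be told apart from the partner's. No exon of the other 7 members overlaps another gene.

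Promoter windows are shown for 3 members: Rbpj, whose window holds matches to the core motif that its own protein binds, and Dll1 and Hes6, the pair of members whose levels were most alike over the libraries. The windows run from 250 bases before to 50 bases after an annotated start (RefSeq, GRCm38.p6). Capitals mark matches to TGGGAA, the RBPJ core motif, on either strand, and to CAGCTG, an E-box that MyoD favours and that reads the same on both strands.
Rbpj, chr5:53590096-53590395, plus strand: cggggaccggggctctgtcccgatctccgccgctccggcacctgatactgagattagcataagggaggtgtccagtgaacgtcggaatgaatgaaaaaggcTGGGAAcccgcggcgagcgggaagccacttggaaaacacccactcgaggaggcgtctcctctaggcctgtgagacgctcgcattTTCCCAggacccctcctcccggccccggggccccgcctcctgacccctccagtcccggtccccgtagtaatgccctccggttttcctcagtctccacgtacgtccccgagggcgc
Dll1, chr17:15376883-15377182, minus strand: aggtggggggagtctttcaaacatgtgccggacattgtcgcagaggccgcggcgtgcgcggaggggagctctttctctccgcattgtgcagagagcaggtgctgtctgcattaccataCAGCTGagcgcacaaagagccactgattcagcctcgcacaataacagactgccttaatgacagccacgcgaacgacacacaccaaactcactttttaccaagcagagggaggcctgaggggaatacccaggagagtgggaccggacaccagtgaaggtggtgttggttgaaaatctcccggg
Hes6, chr1:91413173-91413472, minus strand: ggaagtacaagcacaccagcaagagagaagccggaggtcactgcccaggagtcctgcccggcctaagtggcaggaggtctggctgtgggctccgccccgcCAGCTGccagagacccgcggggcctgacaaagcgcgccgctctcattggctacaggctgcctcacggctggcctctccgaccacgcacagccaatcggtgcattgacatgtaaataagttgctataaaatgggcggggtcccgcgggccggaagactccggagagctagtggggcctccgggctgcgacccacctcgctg

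The Rbpj window holds TGGGAA at position -149 relative to the start and its reverse complement at -65. The E-box stands at -132 in this Dll1 window and at -150 in this Hes6 window, and no printed window holds matches to both motifs. The promoter table held 10 windows of 7 members; Hes1, Hey1 and Heyl were not among them. Over these 10 windows, TGGGAA was found in 2, both of Rbpj, and CAGCTG in 4, namely both windows of Hes6 and 1 each of Dll1 and Jag1. The other Dll1 window, chr17:15375774-15376073, holds neither motif. The 2 Rbpj windows overlap, and the match at -65 is the same site as that at -205 in the window not printed. Of all 32851 windows of this length in the table, 25.56% hold TGGGAA and 16.3% hold CAGCTG. These are matches of letters and not measured binding.

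Libraries held 19138763 to 25606342 fragments assigned to genes. Rhoa itself ranged from 273 to 383 CPM in control and from 253 to 282 CPM in RhoA het (CPM, counts scaled to a common library total by TMM). Its log2 fold change was -0.29 (SE 0.13, n = 4 each, unadjusted p 0.0495 and adjusted p 1.00 in edgeR). The labelled genotypes overlapped in this transcript only between 273 and 282 CPM. The stem cell label was checked on 11 markers, all of them above the filter: Pax7 lay between 78.5 and 176 CPM, Calcr between 62.5 and 125 CPM and Vcam1 between 1901 and 5085 CPM. Control replicate 2 and RhoA het replicate 6 carried Y-linked fragments (15179 and 15137) and almost no Xist, unlike the other 6 libraries. RhoA het replicate 6 also stood apart in the summed level of 10 endothelial markers, 673 CPM against 70.3 to 162 CPM in the other 7 libraries. The 8 mural markers summed to 1513 CPM there and to 2324 CPM in RhoA het replicate 8, against 649 to 1162 CPM elsewhere. The 8 fibro-adipogenic markers summed to 3386 CPM in control replicate 7 and to 5716 to 8586 CPM elsewhere. The 11 stem cell markers summed to 8576 to 15993 CPM. The part of fibro-adipogenic RNA in the members was not tested. The 20 dissociation response genes summed to 26451 and 28693 CPM in the libraries numbered 5 and to 39840 to 58836 CPM in the others.

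Levels of different genes were compared in TPM, which divides by gene length, here the summed exon length. It was 14232 bases for Notch1, 12750 for Rbpj, 8089 for Notch3 and 5113 for Heyl. The lengths of the transcripts in use were not tested, so the order and the shares below rest on these values. In CPM, without length, Notch3 averaged 198 and Notch1 109. Heyl was the most abundant member at 284 ± 69.2 TPM over the 8 libraries (SD, n = 8), above 96.4% of the tested genes. Hes1 followed at 105 ± 17.3 TPM and Notch3 at 78.0 ± 9.90 TPM. Heyl exceeded Hes1 by 2.70-fold on average, and its lowest library (196 TPM) lay above the highest library of Hes1 (125 TPM). Hes1 was above Notch3 in 8 of 8 libraries although their ranges overlapped. Hey1 came next at 41.9 ± 8.96 TPM, entirely below the range of Notch3 and above Notch1 in every library. Notch1 (24.7 ± 5.15 TPM), Jag1 (23.3 ± 5.87 TPM) and Rbpj (22.3 ± 4.57 TPM) could not be ordered, since Notch1 exceeded Jag1 in 4 of 8 libraries and Jag1 exceeded Rbpj in 5 of 8. Rbpj was above Dll1 in 8 of 8 libraries. Dll1 (16.8 ± 5.27 TPM), Hes6 (14.5 ± 4.03 TPM) and Notch2 (12.9 ± 1.34 TPM) closed the order with overlapping ranges, and Hes6 exceeded Notch2 in 5 of 8 libraries. Even the least abundant member stood above 58.9% of tested genes.

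**Figure D1:**
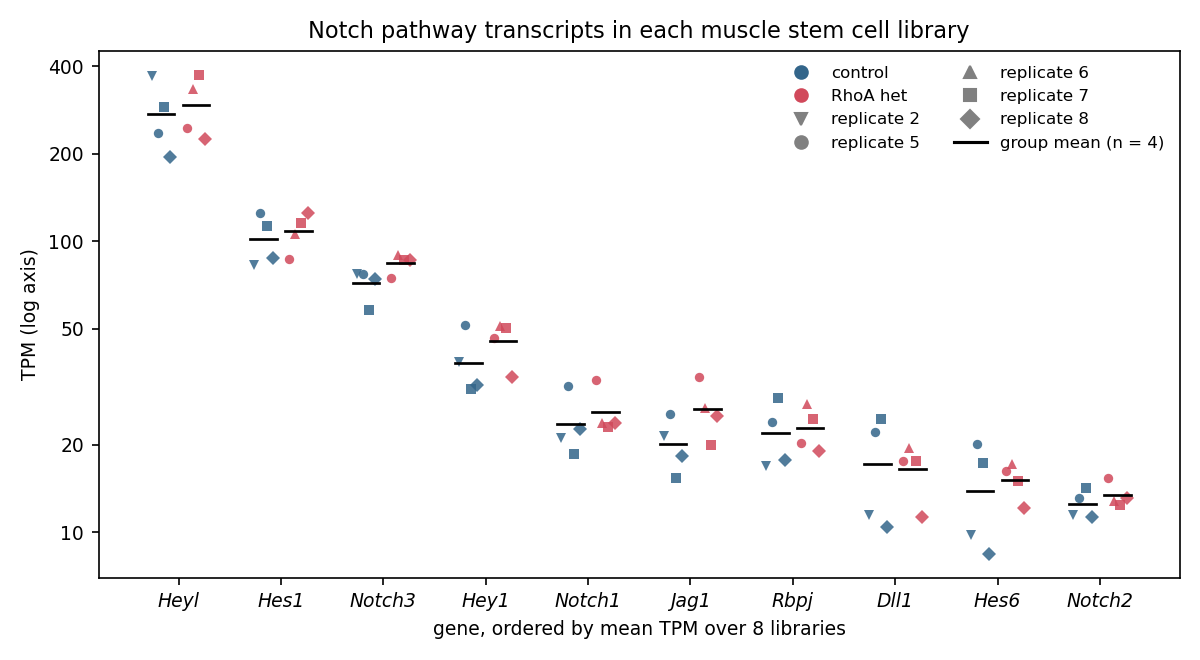
TPM (log axis) of the 10 members in each library, ordered by mean level; colours give the group, symbols the replicate number and black lines the group means (n = 4). Heyl sits between 196 and 375 TPM, above all other members, and control and RhoA het points overlap for every gene.

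Within each class a single gene took most of the transcripts. Among the 3 receptors, Notch3 made up 67.4 ± 4.11% of the summed TPM (SD, n = 8; 60.5% to 71.0%), Notch1 21.3 ± 3.30% and Notch2 11.3 ± 1.89%. Among the 4 effectors, Heyl made up 63.2 ± 6.15% (54.6% to 74.0%), Hes1 24.1 ± 4.94%, Hey1 9.47 ± 1.80% and Hes6 3.28 ± 0.883%. The ligands were more evenly split, with Jag1 at 58.4 ± 9.93% and Dll1 at 41.6 ± 9.93%, and Dll1 exceeded Jag1 in control replicate 7, where it held 61.4% of the pair. Notch3 and Heyl are also expressed by mural cells. In RhoA het replicate 8, where mural markers were highest (2324 CPM summed), Heyl was at 226 TPM, the second lowest of the 8 libraries, and Notch3 at 86.1 TPM. In RhoA het replicate 6, where they were second highest (1513 CPM), Heyl was at 334 TPM, the third highest, and Notch3 at 89.6 TPM, the highest of all. The part of mural RNA in either gene was not tested.

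Control and RhoA het libraries were then compared to ask whether members of the pathway differ when a copy of RhoA is removed. None of the 10 members passed an adjusted p of 0.05 in edgeR's quasi-likelihood test, where the share called among all 15660 genes was also 0%, and none had an unadjusted p under 0.05, against 2.38% of all genes (372 genes; DESeq2 also called 0 genes and put 344 under 0.05 unadjusted). The groups overlapped for all 10 members, while they did not for 1.81% of tested genes. The log2 fold changes (RhoA het minus control) lay between -0.09 and 0.30, with 8 members above 0 and 2 below; their median of 0.046 stood beside one of -0.00071 over all tested genes. Neither the split nor the median was stable: they were 4 above and 6 below with a median of -0.028 without control replicate 8, 6 and 4 with 0.0016 without RhoA het replicate 6, and 9 and 1 with 0.11 without RhoA het replicate 8. In limma on log2(TPM + 1) all 10 were above 0, with a median of 0.13 beside 0.068 over all genes. Each 95% confidence interval lay within a 2-fold change in either direction. For Notch1, Notch2, Notch3, Rbpj and Hes1 it lay within 1.5-fold, which bounds a difference between genotypes without showing that there is none.

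**Figure D2:**
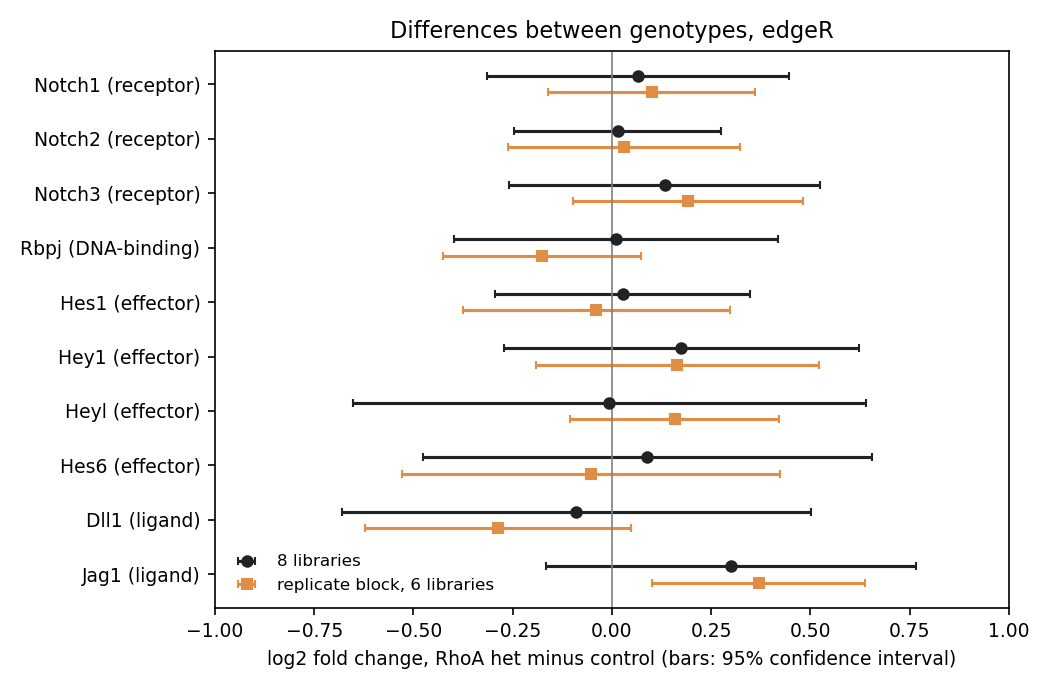
Log2 fold change, RhoA het minus control, of each member with its 95% confidence interval in edgeR over all 8 libraries (circles) and blocked by replicate number in the 6 libraries numbered 5, 7 and 8 (squares). Every interval over 8 libraries includes 0, and with the block only that of Jag1 (0.10 to 0.64) does not.

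The receptors had log2 fold changes of 0.014 to 0.13, none past the threshold. Notch3, the main receptor transcript here, was at 242, 175, 141 and 197 CPM in control replicates 2, 5, 7 and 8 and at 173, 236, 209 and 210 CPM in RhoA het replicates 5, 6, 7 and 8. In CPM, control replicate 7 was the lowest library and control replicate 2 the highest, so that the control libraries enclosed those of RhoA het. This did not hold in TPM. There Notch3 was at 77.4, 77.5, 58.1 and 74.3 in control and at 74.6, 89.6, 86.1 and 86.1 in RhoA het. In limma on log2(TPM + 1) its log2 fold change was 0.23 (unadjusted p 0.135). The means were 189 ± 42.5 and 207 ± 25.6 CPM (SD over 4 libraries), and their log2 difference in edgeR was 0.13 (SE 0.18, 95% confidence interval -0.26 to 0.53, adjusted p 1.00). Notch1, the receptor best known from T cell development, was at 116, 126, 78.9 and 106 CPM in control and at 136, 110, 98.4 and 102 CPM in RhoA het in the same order of replicates. The libraries numbered 5 were the highest of their groups and those numbered 7 the lowest, and Notch1 had a log2 fold change of 0.066 (SE 0.17, interval -0.31 to 0.45). Notch2 was the steadiest member, with a range of 39.5 to 48.0 CPM over all libraries and a highest value 1.21 times the lowest. Its log2 fold change of 0.014 (SE 0.12) had the narrowest interval of the members, -0.25 to 0.27, which corresponds to 0.843-fold to 1.21-fold.

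Rbpj, through which all 3 receptors act on DNA, was at 83.1, 85.2, 111 and 73.8 CPM in control replicates 2, 5, 7 and 8 and at 74.4, 114, 94.0 and 72.7 CPM in RhoA het replicates 5, 6, 7 and 8. Its highest libraries were thus RhoA het replicate 6 and control replicate 7, and both libraries numbered 8 were low. The means, 88.2 ± 15.8 and 88.9 ± 19.6 CPM (SD, n = 4 each), gave a log2 fold change of 0.010 (SE 0.18, interval -0.40 to 0.42; two-sided exact permutation p 1). Within the 3 same-numbered pairs, RhoA het was lower each time, by -0.20, -0.24 and -0.023 on the log2 scale for numbers 5, 7 and 8, and the block fit gave -0.18 (unadjusted p 0.148 in edgeR). The value over 8 libraries was near 0 and its sign turned with single libraries, from -0.14 without RhoA het replicate 6 to 0.14 without control replicate 7.

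Heyl, the main effector transcript, varied more between libraries than any other member in log2 CPM, and the genotypes overlapped; in TPM the highest library was 1.92 times the lowest for Heyl, against 2.38 for Hes6, 2.34 for Dll1 and 2.23 for Jag1. It was at 736, 338, 445 and 327 CPM in control replicates 2, 5, 7 and 8 and at 360, 555, 575 and 347 CPM in RhoA het replicates 5, 6, 7 and 8. In both groups the libraries numbered 5 and 8 were the lowest. Control replicate 2 was the highest of all, and control replicate 7 lay close to the mean of the 8 libraries. The means were 462 ± 191 and 459 ± 123 CPM (SD, n = 4 each), with a log2 fold change of -0.0071 (SE 0.29, interval -0.65 to 0.64). With TPM as the scale, with total counts, and in the 6 libraries numbered 5, 7 and 8, the sign was positive. In each of the 3 pairs RhoA het was slightly higher, by 0.088, 0.37 and 0.085 for numbers 5, 7 and 8, and the block fit gave 0.16 (SE 0.12, unadjusted p 0.214 in edgeR). Control replicate 2 has no partner in the table; without it the log2 fold change over the remaining libraries was 0.31.

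Hes1, the effector found in most Notch-responsive tissues, kept a narrow range: 65.3, 71.4, 68.7 and 58.4 CPM in control and 51.1, 70.4, 70.8 and 76.7 CPM in RhoA het. The RhoA het libraries held both the lowest value (replicate 5) and the highest (replicate 8). Hes1 had a log2 fold change of 0.027 (SE 0.14, interval -0.29 to 0.35), and the same-numbered pairs went in different directions, -0.48 for number 5, 0.042 for number 7 and 0.39 for number 8. Hey1, a related repressor also made by endothelial cells, was at 48.5, 47.1, 30.4 and 34.2 CPM in control and at 43.6, 54.1, 49.5 and 33.5 CPM in RhoA het. Its highest value was in RhoA het replicate 6, the library with the most endothelial RNA, and its log2 fold change went from 0.17 (SE 0.20, interval -0.27 to 0.62) to 0.075 without that library and to 0.061 without control replicate 7, its lowest library; the part of endothelial RNA in it was not tested. Hes6, the antagonist of Hes1, was the least covered member, with 106 to 249 fragments per library. It was at 6.81, 10.1, 9.33 and 4.98 CPM in control and at 8.45, 10.1, 8.16 and 6.58 CPM in RhoA het, a log2 fold change of 0.090 (SE 0.25, interval -0.48 to 0.65).

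The ligands stood on opposite sides of 0, and neither passed the threshold. Jag1, whose value lay furthest from 0 among the members, was at 48.4, 41.3, 26.9 and 34.9 CPM in control replicates 2, 5, 7 and 8 and at 57.4, 50.4, 34.8 and 43.9 CPM in RhoA het replicates 5, 6, 7 and 8. The 2 highest libraries were RhoA het and the lowest was control, but control replicate 2 lay above RhoA het replicates 7 and 8. The means were 37.9 ± 9.18 and 46.6 ± 9.61 CPM (SD, n = 4 each), and the log2 fold change in edgeR was 0.30 (SE 0.21, interval -0.17 to 0.77; edgeR unadjusted p 0.180, two-sided exact permutation p 0.257, where 0.0286 is the smallest possible). Jag1 was higher in RhoA het in 3 of 3 same-numbered pairs, by 0.47, 0.37 and 0.33 on the log2 scale. With the replicate block its log2 fold change was 0.37 (SE 0.12, interval 0.10 to 0.64), at an unadjusted p of 0.0112 and an adjusted p of 0.755 in edgeR. It was the only one of the 10 members at an unadjusted p under 0.05 there, beside 5.26% of all genes, and 0.0127% of all genes were called after adjustment. In the same fit all 11 tested myofibre markers were below 0 (median -1.22, 10 at an unadjusted p under 0.05, 2 called), and their part in the blocked values of Jag1, Dll1 and Pax7 was not tested. Single libraries moved the value of Jag1, to 0.17 without control replicate 7 and to 0.18 without RhoA het replicate 5. It was 0.26 without RhoA het replicate 6, the library highest in endothelial markers; endothelial cells also make Jag1, and their part in its level was not tested.

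Dll1, a ligand that activated and differentiating myogenic cells display to their neighbours, was at 18.6, 26.0, 31.0 and 14.4 CPM in control and at 21.3, 26.7, 22.3 and 14.3 CPM in RhoA het. Both libraries numbered 8 were the lowest of their groups, and control replicate 7 was the highest of all. The means were 22.5 ± 7.39 and 21.2 ± 5.12 CPM (SD, n = 4 each), and the log2 fold change in edgeR was -0.090 (SE 0.26, interval -0.68 to 0.50, edgeR adjusted p 1.00). In limma on log2(TPM + 1) the sign was positive (0.014), although mean TPM was 17.1 in control and 16.5 in RhoA het. Within pairs Dll1 was lower in RhoA het for numbers 5 (-0.29) and 7 (-0.47) and nearly equal for number 8 (-0.0077), and the block fit gave -0.29 (SE 0.15, unadjusted p 0.0874 in edgeR).

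Libraries of the same number tended to lie close together. For 8 of the 10 members, the mean distance between the libraries of a same-numbered pair, which differ in genotype, was smaller than that between libraries of the same group. For Heyl these distances were 0.18 and 0.56 on the log2 CPM scale, for Rbpj 0.15 and 0.34, and for Dll1 0.26 and 0.54. The exceptions were Notch2 and Hes1. The sets of libraries are unlike, since the distances within groups also take in control replicate 2 and RhoA het replicate 6, which have no partner. In the libraries numbered 8, Heyl, Hes6, Dll1, Hey1 and Rbpj were all below their means in both genotypes. In those numbered 5, Notch1 was above its mean by 0.23 and 0.34 and Heyl below it by -0.38 and -0.30. These 2 libraries also had the highest levels of the proliferation gene Mki67, at 57.6 and 37.6 CPM against 3.80 CPM or less elsewhere, and the lowest sums of dissociation response genes; the part of either in the Notch genes was not tested. The SD of log2 CPM over the 8 libraries ran from 0.12 for Notch2, where 5.45% of the 7924 genes with a mean of at least 10 CPM varied less, to 0.44 for Heyl, where 86.8% did. The median SD was 0.28 over the members and 0.24 over those genes.

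**Figure D3:**
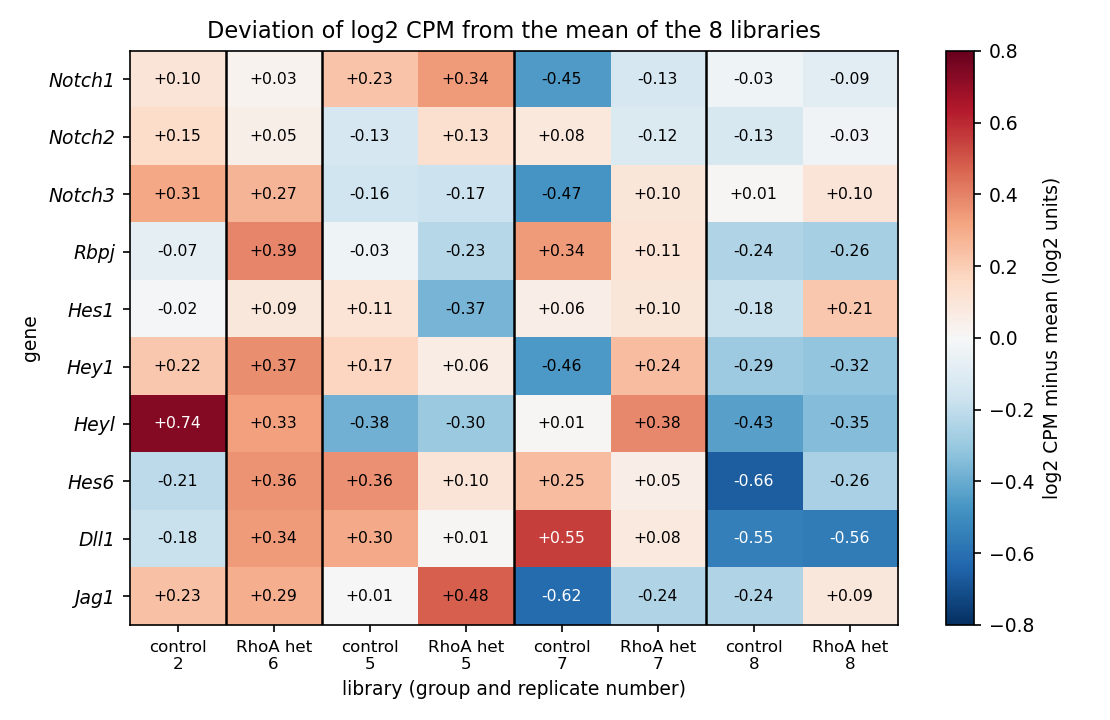
Deviation of each member's log2 CPM from its mean over the 8 libraries, with libraries of the same replicate number side by side and red for values above the mean. Heyl runs from 0.74 in control replicate 2 to -0.43 in control replicate 8, and Dll1 is at -0.55 and -0.56 in the pair numbered 8.

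Among the members, Dll1 and Hes6 were most alike over the 8 libraries (Pearson's r of log2 CPM 0.91), followed by Notch1 with Jag1 (0.85) and Rbpj with Dll1 (0.83). Notch3 and Hey1 were most like each other (0.60), and Heyl was most like Hey1 (0.55). Notch2 was most like Heyl (0.44) and Hes1 most like Rbpj (0.39). The least alike pairs were Notch1 with Rbpj (-0.50), Notch1 with Hes1 (-0.47) and Notch3 with Dll1 (-0.44). Heyl was least like Notch1 (-0.15). Over all tested genes with a mean of at least 10 CPM, the closest gene was Larp6 for Heyl (0.96), St3gal5 for Notch3 (0.99), Fzd5 for Hey1 (0.99), Xrcc1 for Dll1 (0.98), Ormdl3 for Hes6 (0.97), Mob4 for Notch1 (0.98), Hbs1l for Rbpj (0.97), Cmip for Jag1 (0.95), Cpped1 for Hes1 (0.94) and Rpp38 for Notch2 (0.94). Each of these is the highest of at least 7906 values over 8 libraries, of which 6 fall into same-numbered pairs, and they are given as a description only.

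Beyond the members, 67 other genes tied to the pathway were listed, and 57 of them passed the filter. None passed the adjusted threshold in edgeR (0 of 15660 genes did), and 1, Pax7, had an unadjusted p under 0.05, or 1.75% of those tested beside 2.38% of all genes. The groups did not overlap for 2 of them (3.51%, beside 1.81% of all genes), Pax7 and Itch. There were 34 genes above 0 and 23 below, with a median log2 fold change of 0.065, where 49.9% of all tested genes were above 0. The split moved with the scale, as given below for single lists.

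Other receptors and ligands were scarce in most libraries, Dlk1 less so (1.35 to 20.4 TPM). Notch4, the receptor typical of endothelium, had 7 to 18 fragments per library, and Dll3, Dlk2 and Dner at most 11, so that they fell below the filter. Dll4, the Delta ligand of endothelial cells, was at 1.21, 2.09, 3.15 and 1.03 CPM in control and at 4.23, 26.0, 1.12 and 1.08 CPM in RhoA het replicates 5, 6, 7 and 8. RhoA het replicate 6 held by far the most, and Dll4's log2 fold change of 2.10 (SE 0.97, edgeR unadjusted p 0.0563) stood at 0.19 without it. Jag2 went from 0.74 to 0.36 in the same way. Dlk1, a Delta-like protein without the usual receptor-binding domain, was at 32.3 and 32.7 CPM in the libraries numbered 5 and at 2.29 to 12.7 CPM elsewhere, with a log2 fold change of 0.41 (SE 0.75).

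The enzymes that prepare and cut the receptor were present in every library. In the cleavage list, 3 of 10 genes were above 0 and 7 below, a split that did not hold: it was 6 to 4 with total counts, 7 to 3 in limma on log2 TPM, and 0 to 10 without RhoA het replicate 5. Ncstn, a subunit of gamma-secretase, averaged 94.4 TPM, with a log2 fold change of 0.050 (SE 0.19). The lowest p-values in this list belonged to Psenen (-0.15), Aph1a (-0.17) and Aph1c (-0.24); Aph1c is a close copy of Aph1b, and its fragments may be split between them. Among 5 glycosylation genes, Rfng (22.8 TPM) and Poglut1 (14.1 TPM) were the most abundant, with log2 fold changes of 0.091 and 0.13, and Pofut1, which adds the fucose needed for ligand binding, was at -0.20. Mfng, a Fringe enzyme, was at 0.97 and at 0.15 without RhoA het replicate 6.

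Of 15 nuclear cofactors, 10 were above 0 and 5 below (13 and 2 in limma on log2 TPM). Maml2, a Mastermind coactivator, had control values of 22.7, 21.1, 24.4 and 17.1 CPM and RhoA het values of 22.5, 33.4, 28.4 and 25.0 CPM, which overlapped, with a log2 fold change of 0.36 (SE 0.17, edgeR unadjusted p 0.0595, adjusted p 1.00). The acetyltransferase gene Crebbp was at 0.22 and the corepressor gene Ncor1 at 0.17. Hdac1 and Snw1 were the most abundant of the list (152 and 55.4 TPM) and were at -0.12 and -0.14. Of 14 tested negative regulators and endocytic genes, 8 were above 0 and 6 below (11 and 3 in limma on log2(TPM + 1)). Itch, a ubiquitin ligase that removes Notch, was at 37.2, 41.1, 43.7 and 38.2 CPM in control and at 50.4, 46.7, 43.8 and 47.9 CPM in RhoA het. All RhoA het libraries lay above all control libraries, by a margin of 43.8 against 43.7 CPM at the closest, with a log2 fold change of 0.24 (SE 0.11, edgeR unadjusted p 0.0524, adjusted p 1.00; two-sided exact permutation p 0.0286, the smallest possible). Dtx3 (96.7 TPM) and Numb (61.1 TPM), the latter an inhibitor inherited unequally at some divisions, were the most abundant and stood at 0.27 and 0.093. Neurl3 was at 1.52 with RhoA het replicate 6 and at 0.021 without it.

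**Figure D4:**
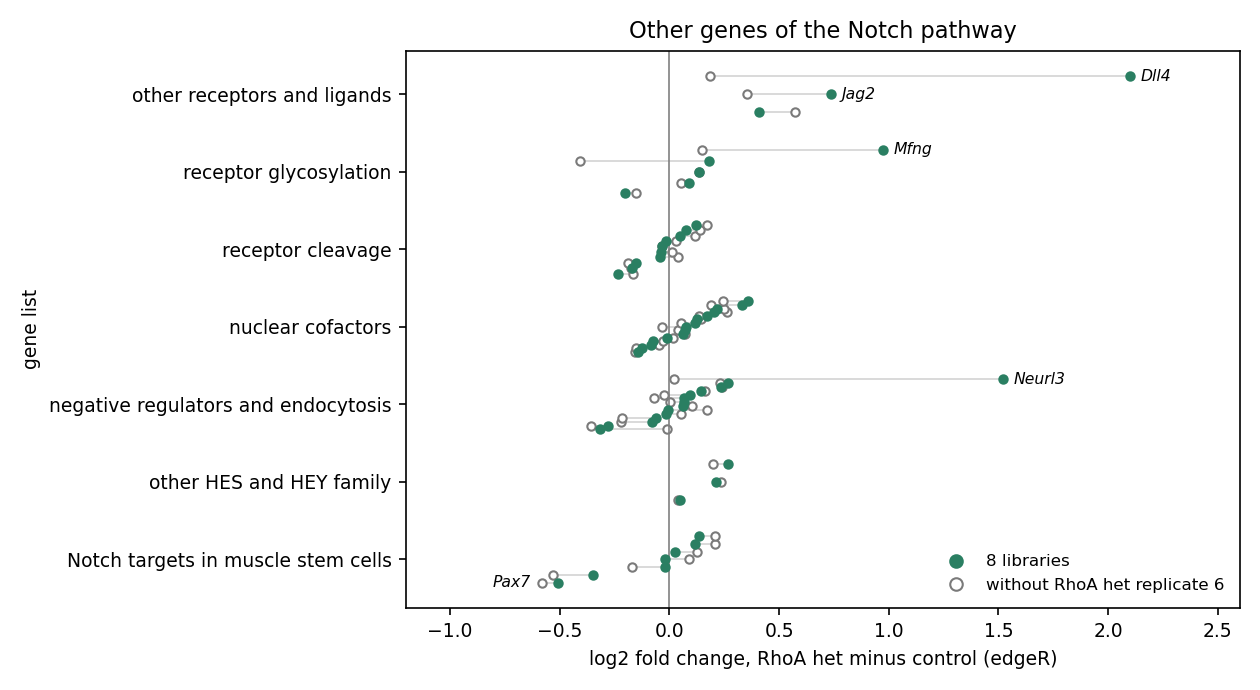
Log2 fold change, RhoA het minus control (edgeR), of the tested genes of 7 Notch pathway lists over all 8 libraries (filled) and without RhoA het replicate 6 (open). Dll4, Neurl3 and Mfng move from 2.10, 1.52 and 0.97 to 0.19, 0.021 and 0.15 when that library is left out, and most other genes stay near 0.

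Classical readouts of the pathway differed widely in level. While Heyl, Hes1 and Hey1 were abundant, Nrarp, a feedback inhibitor induced by Notch in many tissues, had 3 to 17 fragments per library, and Hes5 had at most 15. Hes2, Hes3 and Hes7 had at most 5 fragments and Helt had 0 in every library, and these HES and HEY relatives fell below the filter. Hey2 was tested at 19 to 77 fragments (log2 fold change 0.21, SE 0.39). Bhlhe40, a more distant relative that responds to many stimuli, was the most abundant of the listed relatives beyond the members at 203 TPM, with a log2 fold change of 0.27 (SE 0.22), and Bhlhe41 averaged 3.53 TPM with one of 0.046. The 7 genes listed as Notch targets in muscle stem cells divided into 3 above 0 and 4 below, and into 5 and 2 with total counts or in limma on log2 TPM. Calcr, the calcitonin receptor gene that marks quiescence, was at 104, 116, 109 and 62.5 CPM in control and at 88.8, 125, 108 and 64.8 CPM in RhoA het, low in both libraries numbered 8. Col6a1 (420 TPM) and Col6a2, collagen VI genes of the niche, had log2 fold changes of -0.020 (SE 0.33) and 0.13 (SE 0.26). Myod1, which HES and HEY factors repress, was at 2244 TPM on average, with a log2 fold change of -0.35 (SE 0.25, interval -0.91 to 0.21), and at -0.53 without RhoA het replicate 6. Pax7, which marks the stem cells, had control values of 112 to 176 CPM and RhoA het values of 78.5 to 106 CPM. Its log2 fold change was -0.51 (edgeR unadjusted p 0.0173, adjusted p 1.00), and the replicate block gave -0.65 with an adjusted p of 0.143.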

How the data were processed

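RNA of muscle stem cells was sequenced in 8 libraries, grouped by their titles. The authors deposited counts per gene, made per the file headers with featureCounts 1.6.4 over exons of GENCODE mouse release 34 on mm39 in paired-end mode without a strand option, and TPM per gene, which equalled the counts divided by length when recomputed (largest relative difference 2e-14). FastQC, cutadapt, STAR and DESeq2 are named in the submitters' processing notes, without roles. Symbols came from GENCODE release 21 (51884 of 57180 genes).

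Counts were filtered with filterByExpr (41520 genes removed), scaled by TMM and tested with edgeR 4.0.16 (R 4.3.3; quasi-likelihood F test, Benjamini-Hochberg over all genes, threshold 0.05), and the fit was tested on simulated data. SEs were derived from the F statistic. CPM uses scaled library sizes and log2 CPM a prior count of 2. Single genes also had a two-sided exact permutation test over 70 assignments. Alternatives used DESeq2 1.42.0 and limma 3.58.1, among others.

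Replicate numbers 5, 7 and 8 occur in both groups. Deviations of same-numbered libraries from their group means correlated at 0.34 to 0.58 over the 3 pairs, so a replicate block was fitted over these 6 libraries. Different numbers correlated at -0.24 on average, a value that centring on the group means largely fixes once the same-number values are given. The pairing comes from these data and the titles. With the block 2 of 15714 genes were called in place of 0, both of them myofibre markers.

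Members and lists were chosen with earlier results of these data known. Of the pathway lists the text names genes past the threshold, the 3 with the lowest p and the 2 with the highest TPM per list, except 1 item that is not reported here; Notch4, Dll3, Dlk2, Dner, Nrarp, Calcr and the HES relatives below the filter, and the markers, were chosen after their values were seen. For likeness, the closest gene and member per member are named, and some of the least alike members, which were chosen after their values were seen.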

Additional observations from a re-analysis of the deposited data

How the results depend on the processing

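No member passed the threshold under any of the 20 alternatives (adjusted p 0.755 to 1.00), and the count of changed genes was 0 in all but the replicate block over libraries 5, 7 and 8, with 2; leaving out each library gave 0 to 0 genes. Signs of values near 0 changed for 16 member values under other alternatives and held for 104, and leaving out single libraries turned 20 and kept 60. With the replicate block the log2 fold changes were -0.18 for Rbpj, -0.039 for Hes1, 0.16 for Heyl and -0.052 for Hes6, and -0.035 for Bhlhe41, -0.13 for Dll4, -0.093 for Hey2, -0.038 for Mfng and -0.18 for Neurl3. In the same 6 libraries without the block they were -0.19 for Rbpj, -0.025 for Hes1, 0.18 for Heyl, -0.098 for Hes6, -0.023 for Hey2, -0.044 for Mfng and -0.24 for Neurl3. The pairing turned no call of a member or named gene. With total counts, Heyl was at 0.067 and Col6a1 at 0.0064. In limma on log2(TPM + 1) and log2(TPM + 0.1), Heyl was at 0.12 and 0.12, Dll1 at 0.014 and 0.019, and Col6a1 at 0.13 and 0.13. Without both libraries numbered 5, Notch2 was at -0.085 and Col6a1 at 0.11. With sex, inferred from Y-linked genes and added after seeing the data, as a block, Rbpj was at -0.0074, Heyl at 0.055 and Col6a1 at 0.0025. The cause of these changes was not tested.

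Leaving out each library in turn, the log2 fold changes ran from -0.056 to 0.15 for Notch1, -0.040 to 0.065 for Notch2, 0.015 to 0.27 for Notch3, -0.14 to 0.14 for Rbpj, -0.044 to 0.14 for Hes1, 0.061 to 0.29 for Hey1, -0.14 to 0.31 for Heyl, -0.077 to 0.23 for Hes6, -0.25 to 0.10 for Dll1 and 0.17 to 0.44 for Jag1. Among the other genes whose sign changed, they ran from -0.26 to 0.022 for Aph1a, -0.23 to 0.18 for Bhlhe41, -0.26 to 0.36 for Col6a1, -0.032 to 0.40 for Col6a2, -0.23 to 1.61 for Dlk1, -0.22 to 0.018 for Hdac1, -0.024 to 0.41 for Hey2, -0.057 to 0.24 for Ncstn, -0.025 to 0.16 for Numb and -0.0038 to 0.16 for Rfng. The order of the members by level was the same in scaled CPM per kilobase, which divides by the same lengths as TPM and cannot test them. With 106 to 249 fragments per library, counting error bears more on Hes6 than on the other members.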
